A study of Mus musculus with 6 samples.

Results

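A set of 1154 autosomal regions had little accessible chromatin in fibroblasts and in reprogramming intermediates up to day 10, was open at day 12, and was open further in induced pluripotent stem cells (iPSCs). The members were chosen by level. A member had fewer than 25 normalised counts in each of the libraries of MEF day 0, day 8, day 9 and day 10, at least 50 at day 12 and at least 100 in iPSC. A normalised count is the number of sequenced reads in a region divided by the size factor of the library. Of 218231 autosomal regions 0.529% met all 6 limits, and the whole table held 223596 regions. The rule used all 6 libraries, so that the levels of the members are given as a description and without a test.

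Reprogramming turns a somatic cell into a pluripotent one by forced expression of a few transcription factors. Somatic enhancers close and many regions open early under the exogenous factors, whereas the endogenous pluripotency network, which sustains itself without them, becomes active late. SSEA1, a carbohydrate antigen, is a surface marker gained by cells that move towards pluripotency. ATAC-seq reads out open chromatin through a transposase that inserts adapters where DNA is not packed into nucleosomes, mostly at promoters and enhancers.

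The libraries came from female hybrid mouse cells of a cross between Musculus mothers, which carried a GFP transgene on the X chromosome, and Castaneus fathers. MEF day 0 was a sample of mouse embryonic fibroblasts (MEFs) transduced with lentiviral tetO-FUW-OSKM and FUW-M2rtTA and sorted for silent X-GFP, before induction. The intermediates of days 8, 9, 10 and 12 were FUT4+ (SSEA1+) cells kept in 2 μg/ml doxycycline and 50 μg/ml ascorbic acid, and iPSCs were derived from picked colonies after both were withdrawn. The sample titles call all 6 GFP-negative, and the age of the embryos was not given in the sources used here. Each of the 6 time points was 1 library from 20000 cells. A library is therefore a population, in which more cells with an open region and a more open region in each cell cannot be told apart, and the transgenes were induced at day 12 but not in iPSC. The labels' growth protocol lists ascorbic acid for iPSCs as well, so that the sources differ on this agent. Day 12 and iPSC differ in the doxycycline, possibly in the ascorbic acid, in the way the cells were isolated and in time, which cannot be told apart. The regions are named here by their row number in the table. No gene, coordinate or sequence was attached to them, and the labelled cell types were not checked against marker genes.

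Depth set how well the limits were resolved. The libraries held 22067333 to 32844411 reads in regions. In reads, the limit of 25 normalised counts was 12.45 for MEF day 0 and 27.6, 35.02 and 31.7 for days 8, 9 and 10. The limit of 50 was 55.55 reads at day 12, and that of 100 was 79.8 reads in iPSC. MEF day 0 stands apart from the other libraries, with a size factor of 0.498 against 0.798 to 1.40 and a normalised total of 54460097 against 22020296 to 27653421. A single read was worth 2.01 normalised counts there. At 1 read, the lowest value recovered, which can stand for 0 or 1, were 141 of the members in MEF day 0, 5 on day 8 and 3 on day 9, and none in the later libraries. Without the limit in MEF day 0 the rule held for 1691 regions.

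The members were at low levels in 4 libraries and well above them in the last ones, as the rule set. In MEF day 0 the members lay between 2.01 and 24.1 normalised counts, with a median of 10.04. The median was 13.6 at day 8, 12.8 at day 9 and 17.4 at day 10. At day 12 the members lay between 50.4 and 167 normalised counts with a median of 63.0, and in iPSC between 100.3 and 639 with a median of 158. Set against all autosomal regions of the same library, the median member was above 19.3% of the regions in MEF day 0 and 17.6% at day 10. By day 12 it was above 63.7% of them, and in the iPSC library above 81.1%. In raw reads the median member had 5, 15, 18, 22, 70 and 126 in the order MEF day 0, days 8, 9, 10 and 12, iPSC. The share of all autosomal reads that fell into the 1154 regions does not use the size factors. It scales each library by its own autosomal total instead. In the same order this share was 0.0238%, 0.0602%, 0.0668%, 0.0841%, 0.369% and 0.769%. That it was highest in the last 2 libraries was favoured by the rule.

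**Figure D1:**
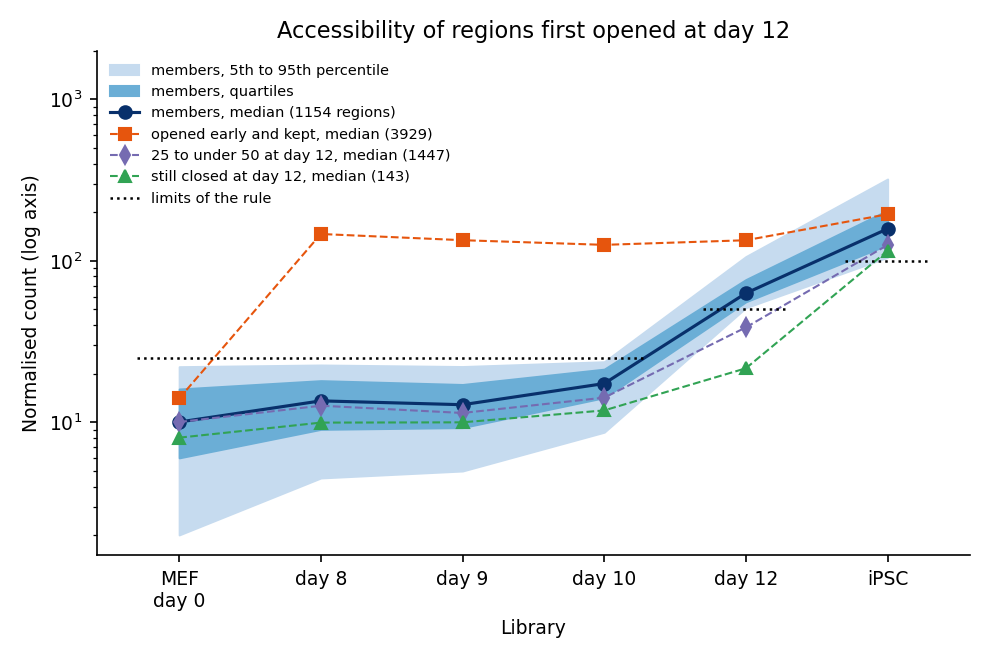
Normalised counts (log axis) of the 1154 members in the 6 libraries, with the median, the quartiles and the 5th to 95th percentile over members, and the medians of like sets of autosomal regions. The members stay below the limit of 25 (dotted) up to day 10 with a median of 17.4 at day 10, and reach medians of 63.0 at day 12 and 158 in iPSC, whereas regions opened early are already at a median of 147 at day 8.

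Between day 10 and day 12 the normalised counts of a member went up 3.90-fold in the median, with quartiles of 3.16-fold and 4.90-fold and a range from 2.06-fold to 28.1-fold. By the criterion of a log2 difference of at least 2 with 50 or more in the library with the higher level, 478 members (41.4%) gained from day 10 to day 12, where 0.67% of all autosomal regions did. From day 12 to iPSC 86 members (7.45%) gained, against 1.34% of all autosomal regions. All 1154 gained from MEF day 0 to iPSC, against 13.4%. These contrasts were part of the rule, and nothing is read from the counts. The limits at day 12 and in iPSC were passed by 43.8% and 27.9% of all autosomal regions.

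At day 12 nearly all members were below their iPSC level. The day 12 level of a member was 40.9% of its iPSC level in the median, with quartiles of 32.5% and 50.3% and a range from 12.4% to 107%. There were 90 members (7.80%) below 25% of the iPSC level, 768 (66.6%) between 25% and 50%, 272 (23.6%) between 50% and 75%, 18 (1.56%) between 75% and 100% and 6 (0.520%) at or above it. Thus 1148 of the 1154 members had more normalised counts in iPSC than at day 12. Among all autosomal regions 53.3% did, and since both levels were part of the rule nothing is read from the difference. The exact (Clopper-Pearson) 95% interval of the fold from day 12 to iPSC lay above 1 for 1128 members. The intervals given here describe the counting of reads only. Reads need not be independent molecules, and the spread between cultures was not measured.

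The members were the upper part of a wider group that was not chosen on day 12. A total of 26173 autosomal regions were below 25 normalised counts up to day 10, and 2744 of these (10.5%) had at least 100 in iPSC. At day 12 these 2744 regions formed a continuum from 7.20 to 167 normalised counts with a median of 46.8. The 1154 members made up 42.1% of them (95% exact interval 40.2% to 43.9%), 1447 (52.7%) were at 25 to under 50, and only 143 (5.21%) were still below 25. The limit of 50 lay close to the middle of this distribution, with 349 regions between 45 and 50 normalised counts and 277 between 50 and 55. The split depended on the scaling. With equal autosomal totals in all libraries 64.8% of such regions were at or above 50 at day 12. That scaling multiplied all day 12 values by 1.35 and all day 10 values by 1.22, with the limits unchanged. The limit of 50 was thus easier to reach, and the rise in the share is not a measure of the step from day 10 to day 12.

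Regions that became most accessible in iPSC were most often past the limit at day 12. Of the 1683 regions of this wider group with 100 to 150 normalised counts in iPSC, 521 (30.96%) were members. The share was 50.2% (323 of 643) at 150 to 200, 70.2% (231 of 329) at 200 to 300 and 88.8% (79 of 89) above 300. The distance covered by day 12 had the opposite order. Expressed as a percentage of the way from the day 10 level to the iPSC level, the day 12 level stood at a median of 26.4% for regions with 100 to 150 normalised counts in iPSC, 22.1% at 150 to 200, 20.5% at 200 to 300 and 19.8% above 300. Over all 2744 regions the median was 24.2%, with quartiles of 16.6% and 33.4%. This second measure contains the iPSC level by which the regions were binned.

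**Figure D2:**
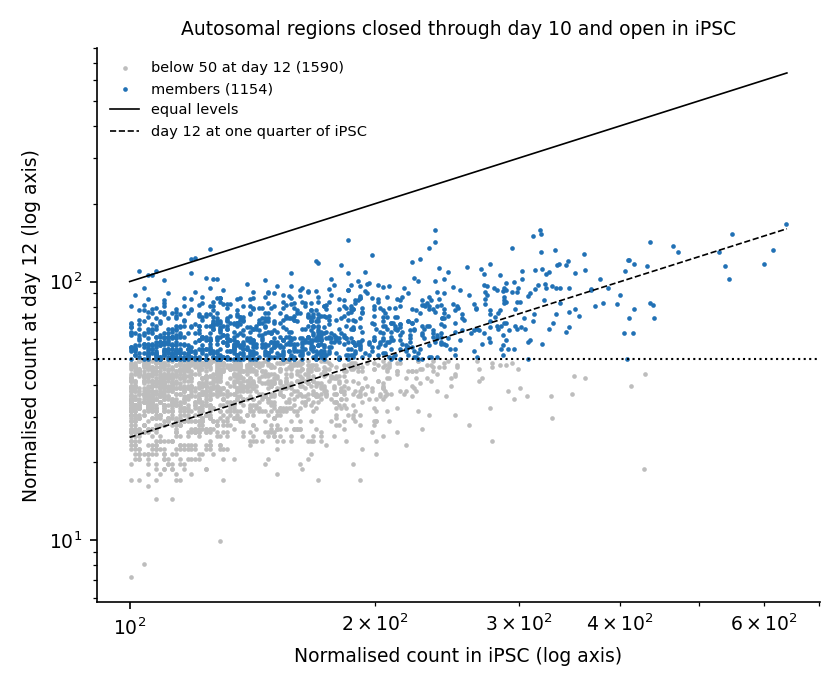
Normalised counts at day 12 against normalised counts in iPSC (both log axes) for the 2744 autosomal regions closed up to day 10 and open in iPSC, members in blue and the other 1590 in grey. The points run through the limit of 50 (dotted) without a gap, and nearly all lie below the line of equal levels.

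The members with the highest final levels were named by rule. Region 75266 on chromosome 15 was highest both at day 12 and in iPSC. Its reads in the order of the libraries were 4, 16, 4, 24, 186 and 510. Its normalised counts were 18.96 at day 10, 167 at day 12 and 639 in iPSC, an 8.83-fold step from day 10 to day 12 (95% exact interval 5.76 to 14.1) followed by a 3.82-fold step to iPSC (3.22 to 4.54). This region was thus closed in 4 libraries and then opened in both late steps.

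Region 132768 on chromosome 3 had 24.1, 19.005, 19.3, 21.3, 132 and 615 normalised counts in the order of the libraries. Its level was flat up to day 10, just under the limit. Region 108431 on chromosome 19 had 4.02, 4.52, 11.4, 18.96, 117 and 600.3 normalised counts in the same order. Each of its values was above the one before. Region 71220 on chromosome 15 had 12.0, 7.24, 18.6, 24.5, 152 and 548, and region 89394 on chromosome 17 had 2.01, 7.24, 4.28, 15.8, 103 and 544. The 5 members with the highest iPSC levels all had day 12 levels above 100 and all were a further 3.60-fold to 5.30-fold higher in iPSC.

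The members with the highest day 12 levels included regions 149148 and 153817, both on chromosome 4 but not in adjacent rows. Region 149148 had 17.4 normalised counts at day 10, 158 at day 12 and 318 in iPSC, and region 153817 had 22.1, 158 and 237. Region 93216 on chromosome 17 had 15.8, 152 and 319.6. The last step of these 3 regions was 2.01-fold (1.65 to 2.45), 1.495-fold (1.211 to 1.85) and 2.10-fold (1.72 to 2.57), smaller than in the group above. That group was named by the iPSC level and these 3 by the day 12 level. The choice favours this order, and nothing is read from it.

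A few members had at least as many normalised counts at day 12 as in iPSC. Region 161401 on chromosome 5 had 18.2, 134 and 125 normalised counts on day 10, on day 12 and in iPSC. The fold from day 12 to iPSC was 0.934 with an interval of 0.718 to 1.212. Region 153820 on chromosome 4 had 109.8 at day 12 and 103 in iPSC, region 109130 on chromosome 19 had 122 and 119, and region 13430 on chromosome 1 had 123 and 120.3. For each of these 4 regions the interval of the fold from day 12 to iPSC included 1, so that the last step was not detectable at this depth.

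At the other end were members that had covered little of the way. Region 181530 on chromosome 7 had 21.3 normalised counts at day 10, 50.4 at day 12 and 407 in iPSC. Its step from day 10 to day 12 was 2.36-fold (1.47 to 3.89) and its step to iPSC 8.08-fold (6.07 to 10.9). Region 117573 on chromosome 2 had 15.8, 63.0 and 415, region 68944 on chromosome 14 had 16.6, 63.0 and 404, and region 39501 on chromosome 11 had 20.5, 50.4 and 308. The larger part of the opening of these 4 regions lay after day 12. In normalised counts this was so for most members. At day 12 the members stood at a median of 33.8% of the way from day 10 to iPSC, with an upper quartile of 43.0%. By fold the medians over members had the opposite order. They were 3.90-fold from day 10 to day 12 and 2.44-fold from day 12 to iPSC.

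**Figure D3:**
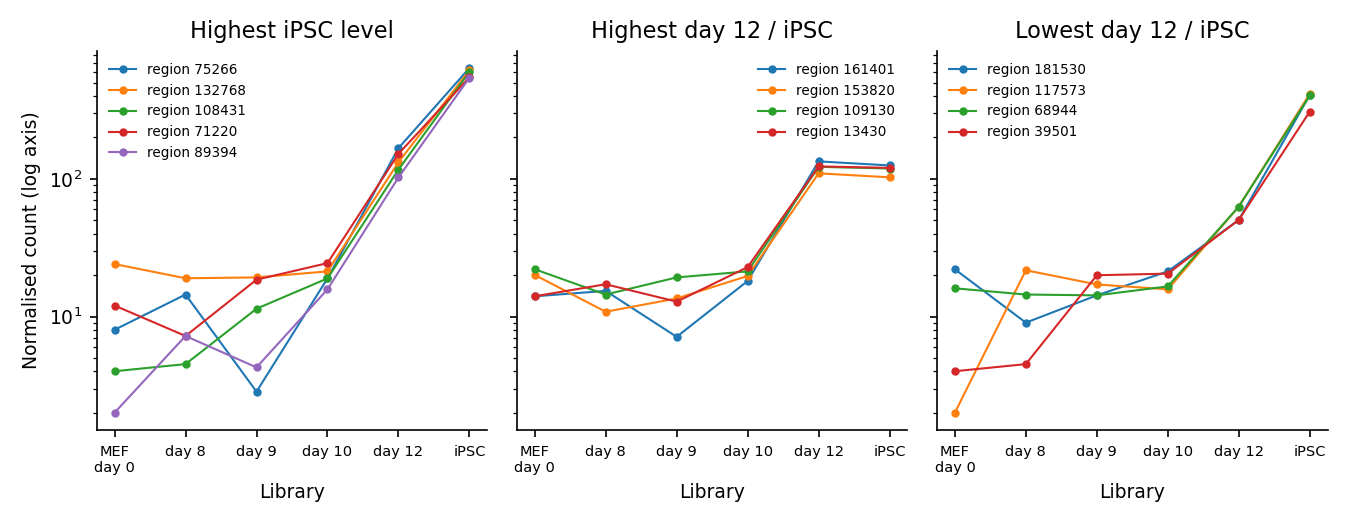
Normalised counts (log axis) in the 6 libraries for the 5 members with the highest iPSC level and for the 4 members each with the highest and the lowest day 12 level relative to iPSC, 1 line per region. All 13 regions are below 25 up to day 10. The middle group is level between day 12 and iPSC, whereas the right group goes from 50.4 to 63.0 at day 12 to 308 to 415 in iPSC.

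The quietest members before day 12 had few reads, above all in MEF day 0 and at days 8 and 9. Region 43213 on chromosome 12 had 2, 6, 1 and 11 reads in MEF day 0 and at days 8, 9 and 10, then 69 at day 12 and 134 in iPSC. Region 171541 on chromosome 6 had 3, 2, 2, 14, 66 and 100 reads over the 6 libraries. Region 153792 on chromosome 4 had 1, 5, 6, 10, 78 and 120, and region 45695 on chromosome 12 had 1, 6, 6, 10, 88 and 162. In all 4 the day 10 value was the highest of the closed libraries, in normalised counts as well as in reads.

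The order of the levels within days 8, 9 and 10 was not set by the rule, which only kept all of them below 25. Of the members 842 (73.0%) had more normalised counts at day 10 than at day 8, and 378 (32.8%) went up at both steps while 102 (8.84%) went down at both. The median log2 difference was -0.01 from day 8 to day 9 and 0.37 from day 9 to day 10. For all autosomal regions these medians were -0.10 and -0.01, and 44.8% were higher at day 10 than at day 8. Day 10 was the highest of the 4 closed libraries in 632 members (54.8%), day 8 in 201, MEF day 0 in 169 and day 9 in 152.

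This early movement was graded over regions that ended at different day 12 levels. Among all regions below 25 up to day 10, 52.6% were higher at day 10 than at day 8. The share was 58.0% in the 143 regions still closed at day 12, 61.4% in the 1447 at 25 to under 50 and 73.0% in the members. The median log2 difference between day 10 and day 8 was 0.10, 0.18 and 0.36 in the same order. Day 10 levels followed this order too, with medians of 11.8, 14.2 and 17.4 normalised counts. All sets share the same libraries, and the differences were not tested.

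Membership of a single region was often within counting error of a limit. The exact Poisson 95% interval was clear of the limit for 591, 752, 840, 455, 550 and 894 members in the order of the libraries, and for 49 members in all 6. For the fold from day 10 to day 12, which the limits held at 2 or more, the interval was above 2 for 833 members (72.2%) and above 4 for 85 (7.37%).

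The values just inside and just outside each limit are given as a description. Region 616, with 24.1 normalised counts in MEF day 0, was a member with 54.0 at day 12 and 133 in iPSC, and region 6518, with 26.1 in MEF day 0, was not, with 81.0 and 258. At day 8 the nearest values were 24.4 in region 25588 inside and 25.3 in region 42755 outside, and at day 9 they were 24.99 in region 8092 and 25.7 in region 368. At day 10 they were 24.5 in region 2788 and 25.3 in region 21. At day 12 region 8261 was inside with 50.4 and region 485 outside with 49.5, and in iPSC region 32966 was inside with 100.3 and region 20486 outside with 99.0. The limit at day 12 kept out most, 1590 regions that met the other 5. The limit at day 10 kept out 775, that in iPSC 726, that in MEF day 0 537, that at day 8 154 and that at day 9 102.

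The levels reached in iPSC were examined without the limit set there. The rule without its iPSC limit held for 1880 autosomal regions. The members were 61.4% of these (95% exact interval 59.1% to 63.6%), another 597 (31.8%) had 50 to under 100 normalised counts in iPSC, 119 (6.33%) had 25 to under 50, and 10 (0.532%) were below 25 again. Of the 1880 regions 1621 (86.2%) were higher in iPSC than at day 12, against 74.98% of all regions closed up to day 10 and 53.3% of all autosomal regions. The 726 regions outside the members had a median of 56.7 at day 12 and 70.8 in iPSC, and 473 of them (65.2%) were higher in iPSC. Their median log2 difference of 0.20 was smaller in size than the shift of -0.31 that equal autosomal totals gave between these libraries, so that its direction depended on the scaling.

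The iPSC regions that opened early differed from the members in when the step took place rather than in its total size. A set of 3929 autosomal regions was below 25 in MEF day 0, at or above 50 at days 8, 9, 10 and 12 and at or above 100 in iPSC. Its median normalised counts were 14.1, 147, 134, 126, 134 and 194 in the order of the libraries. From MEF day 0 to iPSC the median fold was 16.2 in these regions and 16.5 in the members. From day 8 to day 10 the early regions went the other way, with 69.1% lower at day 10 and a median log2 difference of -0.23, against 0.36 in the members. The sets were chosen by these levels, with the same limits in MEF day 0 and in iPSC. The contrast in timing and the likeness in fold are therefore a description.

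To ask how the members were spread over the genome, they were counted by chromosome. Members were found on all 19 autosomes, from 32 on chromosome 19 to 111 on chromosome 2. They made up between 0.367% of the regions of chromosome 17 (95% exact interval 0.256% to 0.511%) and 0.763% of those of chromosome 13 (0.605% to 0.950%). The interval of chromosome 13 lay above those of chromosomes 7, 11 and 17, but regions of 1 chromosome are not replicates.

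On the X chromosome, which the rule left out, 119 of 5357 regions met the same limits. The share of 2.22% (1.84% to 2.65%) was above that of every autosome. The values sum the active and the inactive X chromosome, and reactivation of the latter is what the study followed. The excess was present before the day 12 limit was applied. Regions below 25 up to day 10 and at or above 100 in iPSC made up 5.56% of the X chromosome (4.96% to 6.21%) and 0.904% to 1.62% of the single autosomes. Of these X-linked regions 39.9% (34.3% to 45.7%) were at or above 50 at day 12. This lay within the range of the autosomes, from 33.9% on chromosome 14 to 47.6% on chromosome 4, and its interval included the 42.1% of all autosomes together.

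The course of the 119 X-linked regions was close to that of the members in its medians, with 8.03 normalised counts in MEF day 0, 17.4 on day 10, 64.8 on day 12 and 177 in iPSC. Their day 12 level was 38.9% of iPSC in the median, against 40.9% in the members. A gain from day 12 to iPSC by the log2 criterion was found in 23 of the 119 (19.3%), against 7.45% of the members and 1.34% of all autosomal regions. The difference was not tested. The share of all X-linked regions that gained at this step was not computed, so that nothing is read from it. Of X-linked regions newly at or above 50 at day 12, 79.9% (119 of 149, 72.5% to 86.0%) reached 100 in iPSC, against 61.4% on autosomes. The 2 intervals did not overlap, but chromosomes of 1 library are no replicates and the difference was not tested. Of all X-linked regions 40.004% (2143 of 5357) had at least 100 in iPSC, against 27.9% of all autosomal regions. A higher share on the X chromosome was thus not particular to the regions newly at or above 50 at day 12.

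**Figure D4:**
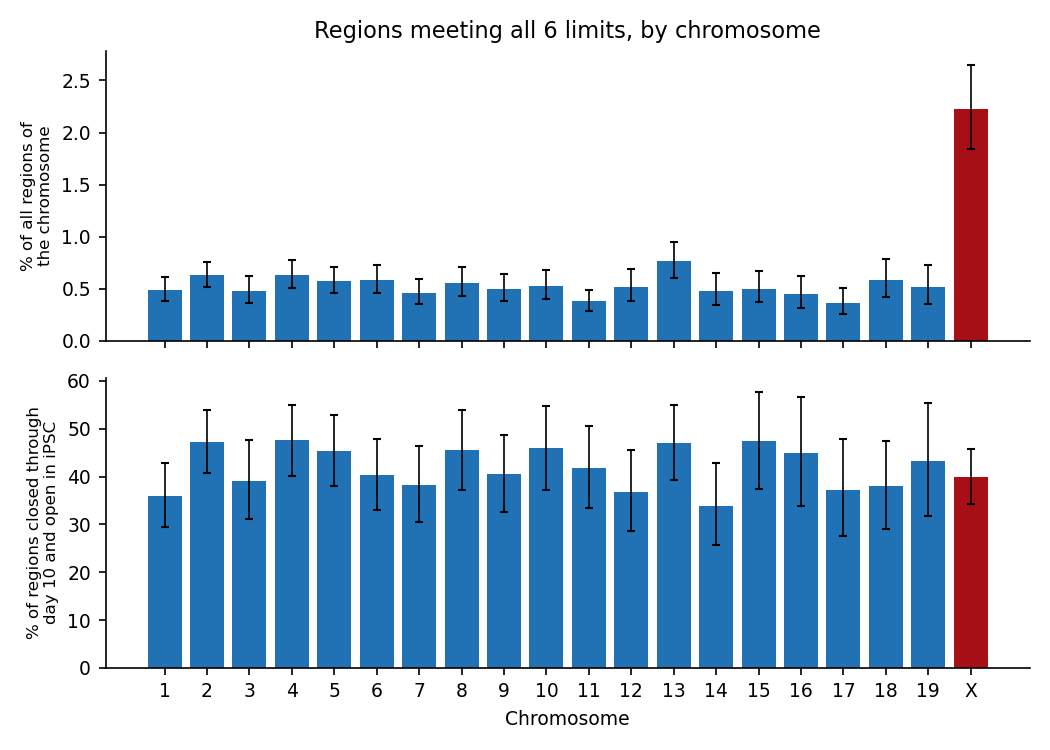
Share of regions that met all 6 limits on each chromosome, of all regions (top) and of the regions closed up to day 10 and open in iPSC (bottom), autosomes in blue and the X chromosome in red, with 95% exact intervals. The X chromosome stands out at 2.22% in the top panel, and lies among the autosomes at 39.9% in the bottom panel.

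To ask whether opening at day 12 was limited to the members, the regions in the rows beside them were examined. The rows run in 1 block per chromosome, and values of neighbouring rows were related. Across all pairs of rows on 1 chromosome, which share a library, the Pearson r of the log2 values was 0.181 to 0.229 in the 6 libraries for adjacent rows, 0.0656 to 0.104 for rows 10 apart and 0.00490 to 0.00906 for rows 1000 apart. Row order therefore carried some information on position, although the distance in bases was not used here.

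The 2247 regions in the rows directly before and after the members, which were not members themselves, had moved in the same direction to a lesser degree. Their median normalised counts in the order of the libraries were 26.1, 32.6, 32.1, 30.8, 40.5 and 56.4. All autosomal regions had medians of 40.2, 45.2, 43.5, 41.1, 42.3 and 41.4. The neighbours were thus below the typical region up to day 10, near it at day 12 and above it in iPSC. Their median log2 difference from day 10 to day 12 was 0.31, against -0.07 for all autosomal regions, and from day 10 to iPSC it was 0.90, against -0.00. Of the neighbours 35 (1.56%) passed the gain criterion from day 10 to day 12, where 0.67% of all autosomal regions did. The neighbours of the 143 regions still closed at day 12 had a like median log2 difference of 0.27 from day 10 to day 12. Of these 284 neighbours 5 (1.76%) passed the criterion, so that this movement was not particular to the members. Their levels were lower, with medians of 33.3 normalised counts at day 12 and 46.4 in iPSC. At least 50 at day 12 were found in 35.9% of them. Among the neighbours of the members 933 (41.5%) had at least 50 at day 12, not more than the 43.8% of all regions. At least 100 in iPSC were found in 781 neighbours of the members (34.8%), against 27.9% of all regions.

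The pattern was weaker farther away. From day 10 to iPSC the median log2 difference was 0.80 in the row before a member and 0.97 in the row after it, 0.32 and 0.33 in the rows 10 away, and -0.03 and 0.08 in the rows 100 away. From day 10 to iPSC the neighbours of the 143 still closed regions had a difference of 0.77, and those of the 3929 early regions one of 0.19.

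**Figure D5:**
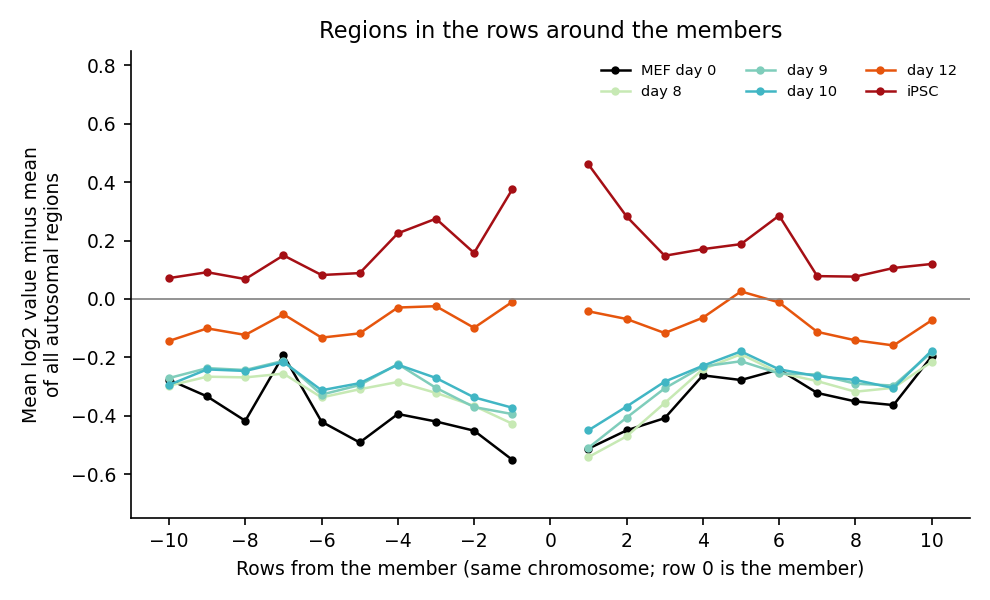
Mean log2 value of the regions 1 to 10 rows before and after a member, members left out, minus the mean of all autosomal regions in the same library. Up to day 10 the neighbours lie below 0, day 12 lies near 0 and iPSC lies above it, at 0.37 in the row before and 0.46 in the row after the member.

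Members also lay next to each other. Of the 1154, 49 (4.25%, 95% exact interval 3.16% to 5.57%) had another member in the next or previous row, where 1.05% of all autosomal regions had a member there. In the early set 10.5% of the regions lay beside another of the set, against 3.53% of all autosomal regions. The members formed 20 pairs and 3 runs of 3 rows, and the other 1105 stood alone. The run on chromosome 19 held region 108431, with 117 normalised counts at day 12 and 600.3 in iPSC, between region 108430 with 56.7 and 244 and region 108432 with 58.5 and 277. The run on chromosome 3 held regions 129534, 129535 and 129536, with 55.8, 73.8 and 55.8 normalised counts at day 12 and 219, 114 and 137 in iPSC. The third run lay on chromosome 18.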

How the data were processed

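Omni-ATAC libraries of 6 time points, 1 per group, were analysed. The authors ran the paired-end reads through the ENCODE ATAC-seq pipeline on GRCm38/mm10, joined alignments and peak calls with DiffBind 3.8, divided reads by DESeq2 1.21.22 size factors (versions from the submitters' processing notes) and deposited log2 values with a pseudocount of 1, not split by allele. Normalised counts were recovered by undoing the logarithm and the pseudocount. In each library 100% of them were whole multiples of 1 step (within 0.001), which gave reads and size factors. Groups were taken from the time point labels. Members, named regions and comparison sets were chosen with earlier results of these data known. Named were the 5 members highest at day 12 and in iPSC, the 4 with the highest and lowest day 12 level relative to iPSC, the 4 with fewest reads before day 12, and the regions nearest to each limit. Runs of adjacent members, the chromosome 4 stretch, and the sets split by day 12 or iPSC level were chosen after their values were seen. No p-values were computed, since no group had a second library. Shares have exact binomial and reads exact Poisson 95% intervals. The code of the rule was tested on simulated data with 200 planted regions well clear of the limits, which does not bear on memberships near a limit. Alternatives were other limits, 3 other scalings, thinning to the shallowest library and, added after the data were seen, no limit in MEF day 0. The shares of closed regions open at day 12 were also put through the alternatives after the data were seen. Python 3.11.15, numpy 2.4.6, pandas 2.3.3, scipy 1.17.1 and matplotlib 3.10.9 were used.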

Additional observations from a re-analysis of the deposited data

How the results depend on the processing

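The number of members followed the limits: 154 with closed regions below 15, 2858 with below 35, 310 with at least 75 at day 12 and 1751 with at least 50 in iPSC, in place of 1154. It was 1087 to 1625 under the other scalings, 1087 with thinned reads and 1691 without the limit in MEF day 0. Which regions they were depended on the processing, since 44.4% of the members remained with thinned reads, 58.9% with equal autosomal totals and 78.6% with quantile normalisation. Thinning was a single random draw with size factors fitted anew and the limits unchanged. It therefore also moved the levels against the limits, and its effect is not that of depth alone. Equal totals shifted all log2 values by 0.14 from day 10 to day 12 and by -0.31 from day 12 to iPSC. Against the unchanged limits they multiplied the values of MEF day 0 by 0.541, of day 12 by 1.35 and of iPSC by 1.09. The X-linked number was 27 (below 15), 231 (below 35) and 33 (day 12 at least 75) in place of 119. The share of regions newly open at day 12 that passed the iPSC limit was 56.6% (below 15), 64.6% (below 35), 83.6% (day 12 at least 75), 93.1% (iPSC at least 50), 46.8% (equal totals), 57.1% (quantile) and 64.8% (thinned). The median day 12 level as a share of iPSC was 42.3% (below 35), 45.1% (day 12 at least 75), 51.1% (iPSC at least 50), 47.8% (equal totals) and 45.1% (quantile). The share of members beside another member was 1.30% (below 15), 7.84% (below 35) and 0% (day 12 at least 75). The share of all autosomal regions beside a member, which changes with the number of members, was not computed for these settings. The values therefore do not show whether adjacency was stronger or weaker. The share with day 10 above day 8 was 76.0% (below 15), 80.6% (day 12 at least 75) and 76.7% (thinned). Of autosomal regions closed through day 10 and open in iPSC, the share open at day 12 was 25.5% (below 15), 53.4% (below 35), 11.3% (day 12 at least 75), 19.6% (iPSC at least 50), 64.8% (equal totals), 49.5% (quantile), 47.4% (size factors from regions with a mean of at least 50) and 39.5% (thinned). On the X chromosome it was 25.0%, 49.6%, 11.1%, 21.9% and 60.4% under the first 5 of these. Other limits change the sets by construction, and the cause of the scaling shifts was not tested. No paired analysis was possible because each group had 1 library, and for the same reason none could be left out. Depth limits single memberships, above all in MEF day 0.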

Other observations

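The densest stretch of members lay on chromosome 4. It was found by a search for the 50 consecutive rows with the most members, after the values had been seen. Between rows 153778 and 153820 there were 8 members, where a stretch of 50 autosomal rows held 0.264 on average, and all 8 regions of that stretch that were closed up to day 10 and open in iPSC were members. The rows were 13446 to 13488 of the 13913 on the chromosome. The 8 members had medians of 19.4 normalised counts at day 10, 95.4 at day 12 and 162 in iPSC, and 6 of the 8 were above 63.0, the median of all members, at day 12.

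Region 153778 had 135 normalised counts at day 12 and 233 in iPSC, region 153779 had 52.2 and 135, region 153786 had 81.0 and 174, and region 153790 had 109.8 and 108. Region 153792 had 70.2 and 150.4, region 153810 had 60.3 and 276, region 153817 had 158 and 237, and region 153820 had 109.8 and 103. Regions 153790 and 153820 were thus as high at day 12 as in iPSC, at 102% and 107% of it, whereas region 153810 was at 21.9%. The next stretch, on chromosome 18 between rows 98629 and 98663, held 5 members with medians of 65.7 at day 12 and 212 in iPSC. Whether reads of such stretches map to repeated sequence was not tested.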
